A study of Mus musculus with 4 samples.

Results

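Apart from the opposite-strand genes named below, the transporter genes described here encode membrane proteins that carry amino acids and transmitters. They do so across the plasma membrane, into synaptic vesicles and out of lysosomes. They were taken by name, but the choice was made with earlier results of these data known. The rule took genes whose single symbol in the array's probe annotation begins with Slc1a, Slc3a, Slc6a, Slc7a, Slc17a, Slc36a, Slc38a or Slc43a. Each gene had 1 probe set (the one with the highest mean over the arrays). This gave 73 of the 19938 genes measured, in 8 families, and 40 of the 73 reached the expression filter, a mean of at least 7.11 on the log2 scale. The 73 include the opposite-strand genes Slc7a6os, which passed the filter, and Slc6a19os, which did not. Both are counted among the transporter genes below. RNA came from C57BL/6J mouse fetuses at embryonic day 18 and was hybridised to 4 Affymetrix arrays, 1 for each group. The groups were hippocampus after maternal ethanol, hippocampus after maternal phosphate-buffered saline (PBS), forebrain after maternal ethanol and forebrain after maternal PBS. Dams were dosed intragastrically for 5 days, embryonic days 8 to 12, either with ethanol (15% by volume, a daily 2.9 g/kg) or with PBS, so all groups share the dosing route. Each within-tissue difference therefore rests on 2 arrays and carries no p-value, and how many fetuses or litters each array represents is not given in the sources used here.

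Glutamate released by excitatory neurons is loaded into vesicles by the Slc17a transporters and cleared by the Slc1a transporters of glia and neurons. GABA, glycine, monoamines, proline, taurine and creatine are taken up by sodium-coupled Slc6a transporters, and glutamine for transmitter synthesis moves through Slc38a carriers. Slc7a light chains exchange large neutral amino acids or cystine and need an Slc3a heavy chain to reach the membrane, while other Slc7a members carry cationic amino acids alone. Slc36a carriers are coupled to protons and Slc43a carriers allow facilitated diffusion of large neutral amino acids.

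Array medians over all probe sets lay between 7.11 and 7.13, while over the 11013 genes kept the median was 8.57 in the hippocampus ethanol array and between 8.66 and 8.68 elsewhere. Markers of hippocampal fields averaged 8.47 and 8.45 in the hippocampus arrays (ethanol, then PBS) and 8.51 and 8.45 in the forebrain arrays in the same order, and limma called 0 of the 7 kept between tissues. They went both ways: Zbtb20 had a limma tissue difference of 0.29 (unadjusted p = 0.0013, adjusted p = 0.0768) and Prox1 one of -0.25 (unadjusted p = 0.0196, adjusted p = 0.23). Striatal projection neuron markers were higher in the tissue labelled hippocampus for 8 of 8 kept genes between ethanol arrays (median 0.68) and for 6 of 8 between PBS arrays (median 0.21), and limma called Ebf1 and Foxp1 higher. The part of striatal tissue in the results below was not tested. The Y-linked gene Eif2s3y read 8.46 and 8.79 in hippocampus and 8.83 and 7.94 in forebrain (ethanol, then PBS), and the part of fetal sex in the results below was not tested. In such bulk tissue, fewer cells of a type and less RNA per cell cannot be told apart.

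The first comparison set hippocampus against forebrain over both treatments with limma, with treatment as a second term and Benjamini-Hochberg adjustment over all 11013 genes. Lower expression in hippocampus was called for the cystine transporter gene Slc7a11, the GABA transporter gene Slc6a13, the cationic amino acid transporter gene Slc7a3, the imino acid transporter gene Slc6a20a and the vesicular glutamate transporter genes Slc17a7 and Slc17a6. That is 6 of the 40 transporter genes kept, where 1.02% of all kept genes were called lower in hippocampus, and 0 transporter genes were called higher, where the share of all kept genes was 0.109%. The calls depended on the model: 3 of the 6 (Slc7a11, Slc6a20a and Slc17a7) were made without a trend in eBayes and 0 with treatment left out. Slc6a13 and Slc7a3 were each called in 3 of the 6 alternatives that kept them. In addition, 26 of the 40 had both hippocampus arrays below both forebrain arrays, against 28.9% of all kept genes, and 0 had both above, against 13.4%. At an unadjusted p of 0.05 limma gave 23 of the 40 lower and 0 higher, where 11.9% of all kept genes were lower and 3.27% higher. At 1.5-fold, 4 of 40 were lower and 0 higher between the ethanol arrays, where 0.536% and 0.154% of all kept genes were. Between the PBS arrays 6 were lower and 0 higher, where 1.19% and 0.0908% were. The fit has 1 residual degree of freedom a gene, the treatment-by-tissue difference, and its error also draws on the spread of genes of like level. No replicate array enters it.

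**Figure D1:**
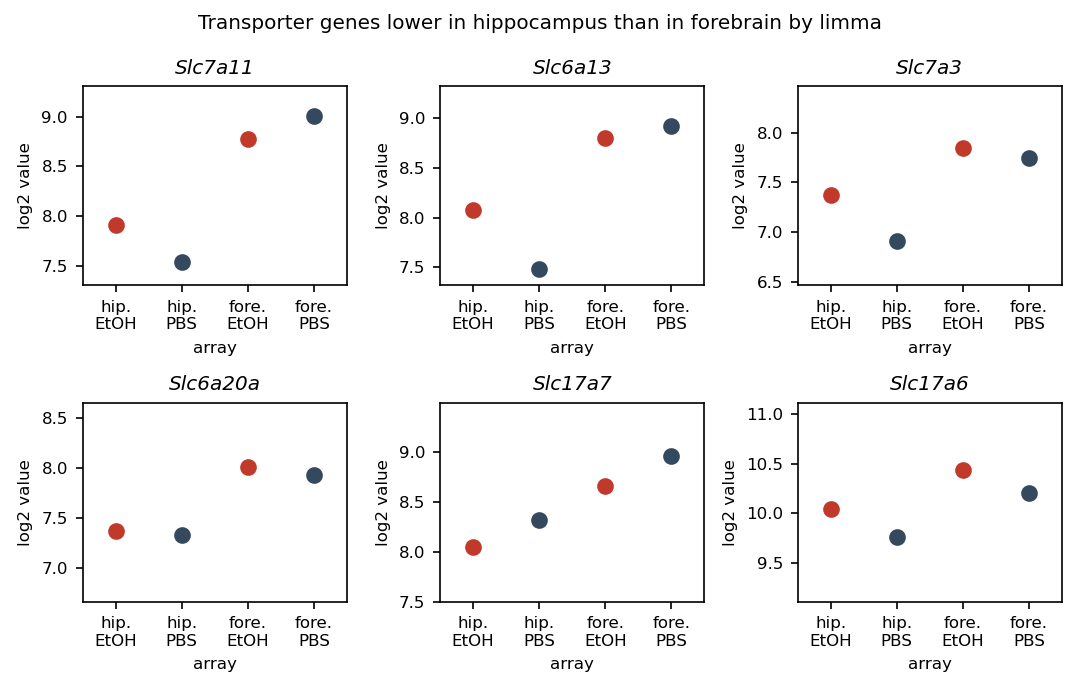
Log2 expression (y axis, each panel spanning the same number of log2 units) of the 6 transporter genes called by limma, with 1 point per array; ethanol arrays are red and PBS arrays dark blue. In each panel both hippocampus points lie below both forebrain points, and for Slc7a11 they stand at 7.91 and 7.54 against 8.77 and 9.01.

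Slc7a11 encodes the light chain that takes up cystine in exchange for glutamate. It read 7.91 after ethanol and 7.54 after PBS in hippocampus, against 8.77 after ethanol and 9.01 after PBS in forebrain. Both hippocampus arrays were lower, with no overlap, and the limma difference of -1.16 on the log2 scale (SE 0.135, adjusted p = 0.0203) is a 2.24-fold lower level in hippocampus. The difference was -0.86 between the ethanol arrays and -1.46 between the PBS arrays. Its heavy chain gene Slc3a2, shared with other light chains, read 10.55 and 10.57 in hippocampus (ethanol, then PBS) against 10.63 and 10.65 in forebrain, a limma difference of -0.08 (adjusted p = 0.57).

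Slc6a13 encodes a GABA and taurine transporter known from the meninges and from liver and kidney. It read 8.07 after ethanol and 7.49 after PBS in hippocampus, against 8.80 after ethanol and 8.92 after PBS in forebrain. The hippocampus PBS array was the lowest of the 4, and the limma difference was -1.08 (SE 0.151, adjusted p = 0.0348), made up of -0.72 between ethanol arrays and -1.43 between PBS arrays. Slc6a20a, which encodes a transporter of proline and other imino acids, read 7.37 and 7.33 in hippocampus (ethanol, then PBS), against 8.01 and 7.93 in forebrain. Here the arrays of a tissue lay close together, and the limma difference of -0.62 (SE 0.0827, adjusted p = 0.0299) was alike in both treatments, at -0.64 and -0.61. Its close copy Slc6a20b, whose signal may not be separable from that of Slc6a20a, stayed below the filter at 6.84 and 7.13 in hippocampus and 6.99 and 6.88 in forebrain.

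The promoters of these 3 of the 6 genes called lower in hippocampus are shown. They are the 250 bases before the most upstream transcription start in RefSeq, build GRCm38.p6, written 5′ to 3′ on the gene's strand. The windows lie at chr3:50443614-50443863 (minus strand), chr6:121300038-121300287 (plus strand) and chr9:123678833-123679082 (minus strand), in the order of the lines. Capitals mark matches, on either strand, to TGATGNAA, the core of the C/EBP-ATF response element bound by ATF4, and to TGACNNNGC, the core of the antioxidant response element bound by NRF2.
Slc7a11: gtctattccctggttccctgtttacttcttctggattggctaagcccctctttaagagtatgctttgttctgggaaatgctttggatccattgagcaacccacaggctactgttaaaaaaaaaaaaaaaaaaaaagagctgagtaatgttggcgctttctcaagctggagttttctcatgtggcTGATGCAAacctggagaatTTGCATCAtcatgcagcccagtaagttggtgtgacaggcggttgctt
Slc6a13: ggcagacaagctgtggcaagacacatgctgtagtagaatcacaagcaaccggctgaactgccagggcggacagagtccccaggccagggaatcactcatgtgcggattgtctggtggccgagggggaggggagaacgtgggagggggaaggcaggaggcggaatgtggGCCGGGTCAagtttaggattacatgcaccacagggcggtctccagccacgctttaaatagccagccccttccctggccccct
Slc6a20a: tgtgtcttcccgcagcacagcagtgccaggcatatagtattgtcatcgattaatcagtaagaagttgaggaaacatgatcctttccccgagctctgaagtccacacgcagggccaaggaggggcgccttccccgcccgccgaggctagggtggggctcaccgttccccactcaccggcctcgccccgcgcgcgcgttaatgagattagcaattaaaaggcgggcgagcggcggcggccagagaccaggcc
Slc7a11 held 2 matches to the first motif, 1 on each strand, starting 66 and 47 bases before the start site. Of all 32851 promoter windows of this length, 3.45% held that motif. Slc6a13 held 1 match to the second motif, which 10.2% of all windows held. Slc6a20a held neither motif, and none of the 3 held TGACGTCA (1.55% of windows) or TATAAA (12.4%). The windows of Slc17a7 and Slc17a6, also called lower in hippocampus, are not shown and held none of these motifs. Slc7a3 had no window. A match describes the letters in the window and is not a measured binding site. Of the 73 transporter genes, 54 had a window in this table.

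Markers of meningeal fibroblasts were also lower in hippocampus. Of 14 markers listed, 12 passed the filter. All 12 read lower in hippocampus in both treatments, where 69.6% (ethanol arrays) and 47.5% (PBS arrays) of all kept genes did. limma called 8 of them lower, where 1.02% of all kept genes were, among them Gjb2, a connexin gene, with an adjusted p of 0.0175. Gjb2 read 6.57 and 6.68 in hippocampus (ethanol, then PBS), against 7.75 and 7.69 in forebrain. Foxc1, also called, read 6.90 and 6.97 in hippocampus against 7.48 and 7.51 in forebrain. Both genes lay below the filter value in hippocampus and were kept through their forebrain values. The mean level of the 12 was 8.34 after ethanol and 8.05 after PBS in hippocampus, against 8.90 after ethanol and 9.01 after PBS in forebrain. The 12 ran from 6.57 (Gjb2) to 11.82 (Nnat) in the hippocampus ethanol array and from 6.56 (Foxd1) to 11.81 (Nnat) in the hippocampus PBS array. Brain endothelial markers read lower in hippocampus for 10 of 10 genes between ethanol arrays and 9 of 10 between PBS arrays (medians -0.25 and -0.21). Microglial markers did so for 4 of 4 in both, whereas choroid plexus markers read higher for 3 of 5 and 5 of 5 in the same order. The part of meningeal tissue or of these other cells in the Slc7a11, Slc6a13 and Slc6a20a values was not tested.

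**Figure D2:**
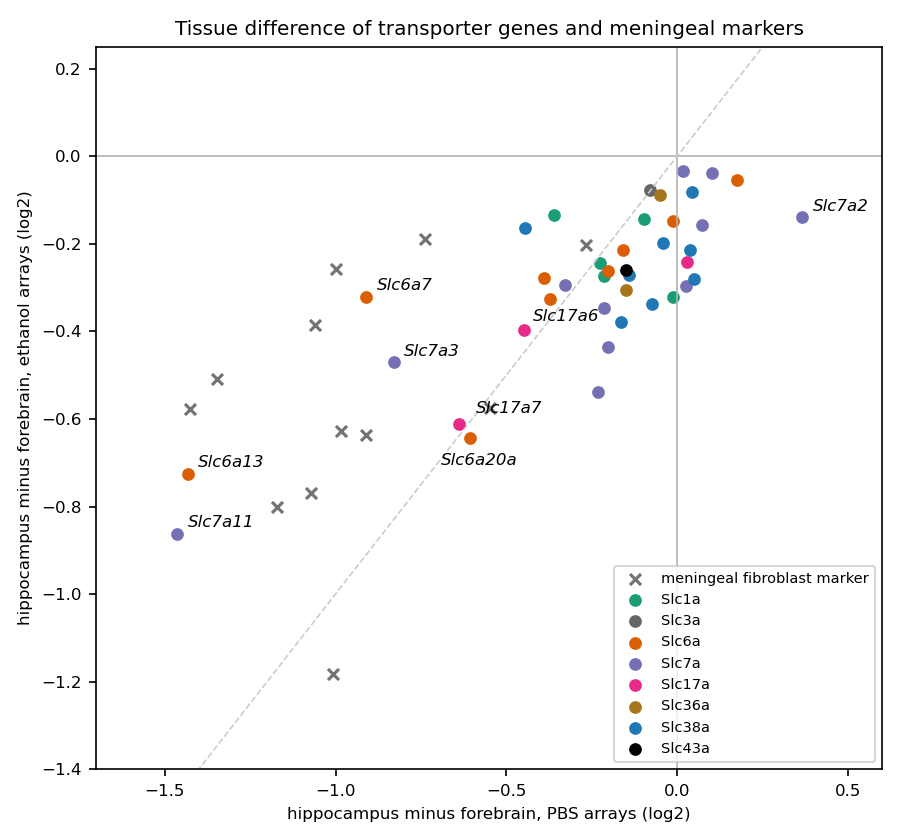
Hippocampus minus forebrain on the log2 scale in the ethanol arrays (y axis) against the same in the PBS arrays (x axis), for 40 transporter genes coloured by family and 12 meningeal fibroblast markers (grey crosses); the dashed line marks equal differences. Slc7a11 and Slc6a13 lie at the lower left, just left of all 12 meningeal markers on the x axis and within their range on the y axis. All 40 transporter genes lie below 0 on the y axis.

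The vesicular glutamate transporter genes were also lower in hippocampus. Slc17a7, which encodes the form typical of mature cortical and hippocampal excitatory neurons, read 8.05 after ethanol and 8.32 after PBS in hippocampus, against 8.66 after ethanol and 8.96 after PBS in forebrain. The tissues did not overlap, and the limma difference was -0.62 (SE 0.0778, adjusted p = 0.0244), with -0.61 between ethanol arrays and -0.64 between PBS arrays. Slc17a6, the form typical of thalamic and other subcortical neurons, read 10.04 and 9.76 in hippocampus (ethanol, then PBS), against 10.44 and 10.21 in forebrain. Its difference of -0.42 (SE 0.0610, adjusted p = 0.0372 by limma) was smaller, again without overlap. Cortical excitatory neuron markers were lower in hippocampus for 7 of 9 kept genes between ethanol arrays (median -0.11) and for 1 of 9 between PBS arrays (median 0.26). Thalamic markers read lower in hippocampus for 8 of 8 genes between ethanol arrays and 6 of 8 between PBS arrays (medians -0.18 and -0.33). The part of either cell population in the tissue differences of Slc17a6 and Slc17a7 was not tested.

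Slc7a3, which encodes a neuronal carrier of arginine and lysine, read 7.37 after ethanol and 6.91 after PBS in hippocampus, against 7.84 after ethanol and 7.74 after PBS in forebrain. The hippocampus PBS array lay below the filter value and stood apart from the other arrays. The limma difference was -0.65 (SE 0.106, adjusted p = 0.0440). Slc6a7, the gene of a brain proline transporter of glutamatergic terminals, had a difference of similar size, -0.62, that did not pass the threshold in limma (SE 0.134, adjusted p = 0.0905). It read 8.22 and 7.51 in hippocampus (ethanol, then PBS) and 8.55 and 8.42 in forebrain, so most of its difference came from the hippocampus PBS array.

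By family, the medians of the tissue difference were below 0 in both treatments wherever at least 3 genes were kept. Between ethanol arrays the medians were -0.24 for 5 Slc1a genes, -0.28 for 9 Slc6a genes, -0.30 for 11 Slc7a genes, -0.40 for 3 Slc17a genes and -0.24 for 8 Slc38a genes, beside -0.06 over all kept genes. Between PBS arrays they were -0.22, -0.37, -0.20, -0.45 and -0.06 in the same order, with 0.01 over all kept genes. With no filter on level the Slc6a median was -0.090 between ethanol arrays and -0.16 between PBS arrays, the Slc7a median was -0.18 and -0.082, and the Slc17a median was -0.054 and, turned in sign, 0.028. All 40 kept genes read lower in hippocampus between ethanol arrays (39 after quantile normalization) and 30 of 40 between PBS arrays, whereas 69.6% and 47.5% of all kept genes did. Without a filter on level these counts were 53 and 51 of 73, and the share of all genes at that setting is not reported here. The medians over the 73 were then -0.14 and -0.094, beside -0.011 and 0.0094 over all genes.

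The high-affinity glutamate uptake genes of glia, Slc1a2 and Slc1a3, had both hippocampus arrays below both forebrain arrays but were not called by limma. Their proteins clear most glutamate around synapses. The limma tissue differences were -0.25 for Slc1a2 (unadjusted p = 0.0208, adjusted p = 0.23) and -0.12 for Slc1a3 (unadjusted p = 0.0949, adjusted p = 0.43). Slc1a3, which radial glia also express, read 9.90 and 9.88 in hippocampus (ethanol, then PBS) and 10.04 and 9.98 in forebrain. Slc1a1, the neuronal form, read 9.05 after ethanol in hippocampus, below a narrow range of 9.37 to 9.40 in the other arrays. The largest positive tissue difference among the 40 genes was that of Slc7a2, a cationic amino acid transporter gene, at 0.11 (adjusted p = 0.75 by limma). It came from 7.45 and 7.87 in hippocampus (ethanol, then PBS) against 7.59 and 7.50 in forebrain, and its sign differed between treatments. Next came Slc6a15 at 0.06, Slc7a10 at 0.03, Slc7a6os at -0.01, Slc38a1 at -0.02 and Slc7a6 at -0.04, none past the threshold in limma.

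The second comparison asked which transporter genes differed in hippocampus after maternal ethanol. Slc6a7 and Slc6a13 were at least 1.5-fold higher in the ethanol array, and 0 genes were 1.5-fold lower, where 0.49% of all kept genes were 1.5-fold higher and 0.427% lower. Over all kept genes these shares stand for 54 higher and 47 lower genes, which became 88 and 31 after quantile normalization. At a looser threshold, a log2 difference of 0.32, 5 of the 40 were higher, namely these with Slc7a3, Slc7a11 and Slc6a11, and 6 were lower. The share of all kept genes past this looser threshold is not reported here, so these counts have no comparison. The SD of the difference over all kept genes was 0.19. The median over the 40 was -0.12, against -0.08 over all kept genes.

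Slc6a7 read 8.22 after ethanol and 7.51 after PBS in hippocampus, a difference of 0.71, and Slc6a13 read 8.07 and 7.49 (ethanol, then PBS), a difference of 0.59. For both the ethanol array stood between the PBS array and the forebrain arrays. Slc7a3 at 0.46, Slc7a11 at 0.37 and Slc6a11, the gene of the astrocytic GABA transporter, at 0.37 had the same order of arrays, although the ethanol array of Slc6a11 (9.69) lay close to the forebrain PBS array (9.71). With 1 array a group, an effect of ethanol and a low hippocampus PBS array cannot be told apart here. Meningeal markers were also higher after ethanol in hippocampus, for 10 of 12 genes with a median of 0.20, and their part in the Slc6a13 and Slc7a11 values was not tested.

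The lower genes were led by Slc7a2 at -0.42, Slc7a6 at -0.38, Slc7a4 at -0.35, Slc38a2 at -0.35, Slc1a1 at -0.34 and Slc7a8 at -0.34. Slc7a6 and Slc7a8 encode light chains of neutral amino acid exchangers, and the light chain gene Slc7a5, which carries leucine at the blood-brain barrier, differed by -0.30. Slc7a6 read 9.42 after ethanol and 9.80 after PBS, Slc7a8 8.17 and 8.51, and Slc7a5 9.81 and 10.11 in hippocampus, in the same order of treatments. In each of these the ethanol array was the lowest of the 4, whereas their partner Slc3a2 differed by -0.02. Brain endothelial markers had a median of -0.09 in this comparison, near the -0.08 of all kept genes.

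Glutamine and other neutral amino acid carriers of the Slc38a family read lower after ethanol in hippocampus for 8 of 8 kept genes, and for 7 of 8 after quantile normalization, where 69.3% of all kept genes read lower. The median was -0.21 and the range ran from -0.35 for Slc38a2 to -0.02 for Slc38a5. Slc38a2, whose protein supplies glutamine to neurons and responds to amino acid shortage, read 10.97 after ethanol and 11.32 after PBS. The related gene Slc38a1 read 10.57 and 10.78 (ethanol, then PBS), and its weaker probe set differed by -0.37 where the one used differed by -0.21. Slc38a9, an arginine sensor of the lysosome, read 8.69 after ethanol and 8.94 after PBS. Its weaker probe set differed by -0.11 in hippocampus where the one used differed by -0.25. The probe set used differed by 0.08 in forebrain and the weaker one by -0.08. In forebrain 6 of these 8 genes were lower too (5 with array medians centred), with a median of -0.03. The taurine and creatine transporter genes Slc6a6 and Slc6a8 differed by -0.20 and -0.25, and Slc6a15, which encodes a neuronal transporter of branched-chain amino acids and proline, by -0.27.

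**Figure D3:**
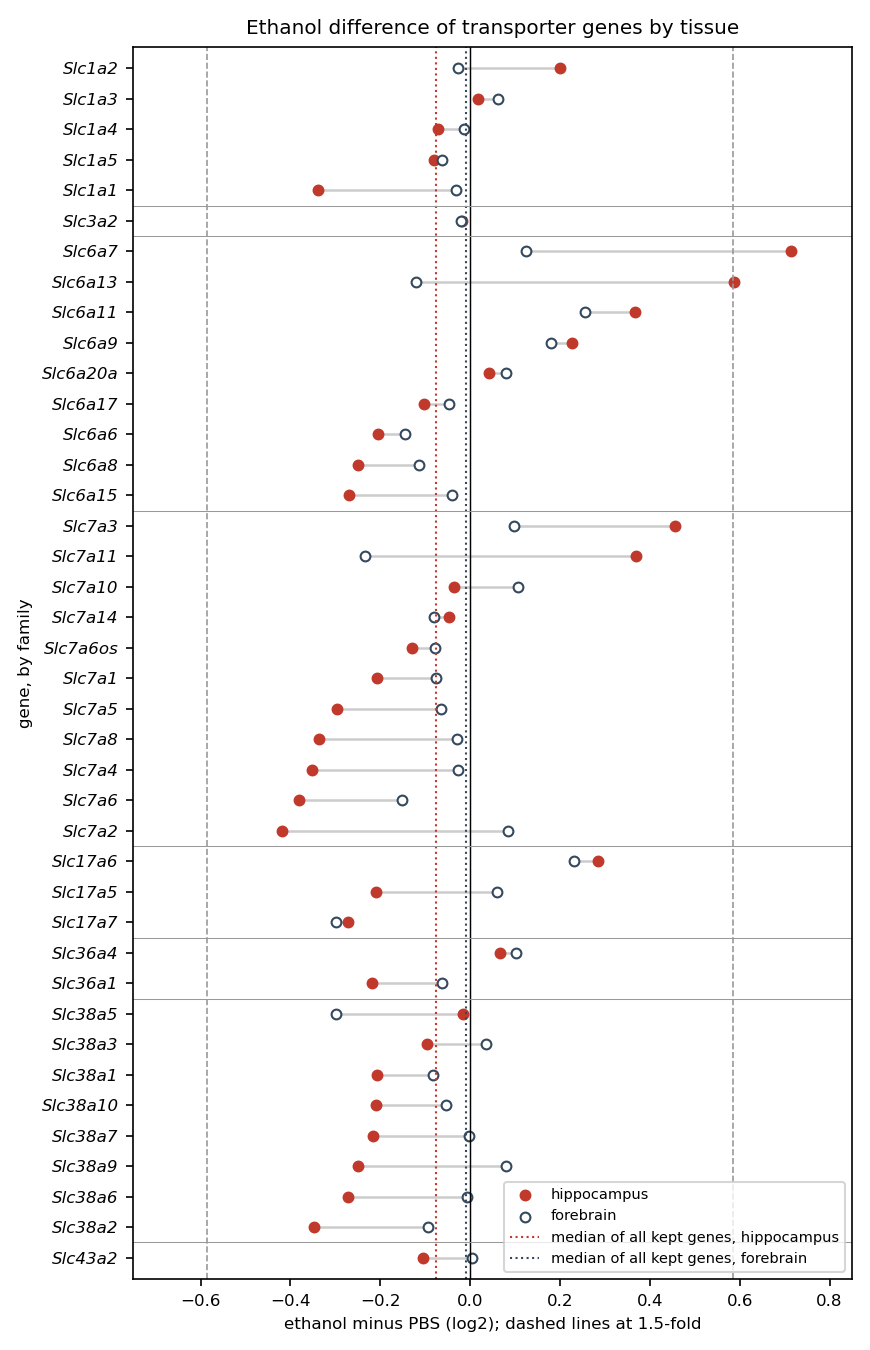
Ethanol minus PBS on the log2 scale (x axis) for each of the 40 transporter genes (y axis, grouped by family), with filled red points for hippocampus and open points for forebrain; dotted lines mark the medians of all kept genes and dashed lines a 1.5-fold difference. Slc6a7 and Slc6a13 lie at or past the right dashed line in hippocampus, and the 8 Slc38a genes lie left of 0 there.

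Forebrain showed a narrower range after ethanol. No transporter gene was 1.5-fold apart, where 0.0454% of all kept genes were 1.5-fold higher and 0.0272% lower, and the range over the 40 ran from -0.30 to 0.26. The highest were Slc6a11 at 0.26, Slc17a6 at 0.23, the glycine transporter gene Slc6a9 at 0.18 and Slc6a7 at 0.13. The lowest were Slc38a5 at -0.30, Slc17a7 at -0.30, Slc7a11 at -0.23 and Slc7a6 at -0.15. Slc38a5, which encodes a glutamine and serine carrier, read 8.56 after ethanol and 8.86 after PBS, and this PBS value was the highest of the 4 arrays.

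Ethanol was also tested over both tissues by limma, with tissue as a second term. No transporter gene was called, and 0% of all kept genes were called in either direction. The adjusted p was 0.51 or more for each of the 40. Without adjustment, limma put 5 transporter genes higher and 6 lower at p of 0.05, where 3.41% of all kept genes were higher and 6.36% lower. The 5 higher were Slc6a7, Slc6a11, Slc7a3, Slc17a6 and Slc6a9, and the 6 lower were Slc17a7, Slc7a6, Slc38a2, Slc7a5, Slc6a6 and Slc38a1. In all, 8 of 40 read higher after ethanol in both tissues and 23 lower in both, and 9 had opposite signs, where 19.1%, 42.3% and 38.5% of all kept genes did.

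The vesicular glutamate transporter genes differed in opposite directions after ethanol, and each in the same direction in both tissues. Slc17a6 was higher by 0.28 in hippocampus and 0.23 in forebrain, with a limma difference of 0.26 (SE 0.0610, unadjusted p = 0.0033, adjusted p = 0.51). Slc17a7 was lower, at -0.27 and -0.30, with a limma difference of -0.28 (SE 0.0778, unadjusted p = 0.0071, adjusted p = 0.51). The third form, Slc17a8, stayed below the filter at 6.45 and 6.21 in hippocampus and 6.41 and 6.29 in forebrain (ethanol, then PBS). Thalamic markers were higher after ethanol for 6 of 8 genes in hippocampus and 7 of 8 in forebrain, with medians of 0.28 and 0.14. Cortical excitatory markers were lower for 8 of 9 and 9 of 9, with medians of -0.56 and -0.06. The part of either cell population in the Slc17a6 and Slc17a7 values was not tested.

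Transporters of inhibitory transmitters read higher after ethanol in both tissues for Slc6a11 and Slc6a9. Slc6a11 read 9.69 after ethanol and 9.32 after PBS in hippocampus, and 9.97 after ethanol and 9.71 after PBS in forebrain. The limma difference was 0.31 (SE 0.0686, unadjusted p = 0.0022, adjusted p = 0.51). Slc6a9, whose protein clears glycine and sets its level at NMDA receptors, read 8.30 and 8.08 in hippocampus and 8.63 and 8.45 in forebrain (ethanol, then PBS), a limma difference of 0.20 (unadjusted p = 0.0353, adjusted p = 0.51). Neither gene passed the adjusted threshold. Astrocyte markers were higher after ethanol for 6 of 8 genes in hippocampus (median 0.24) and 7 of 8 in forebrain (median 0.11), and their part in these values was not tested.

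**Figure D4:**
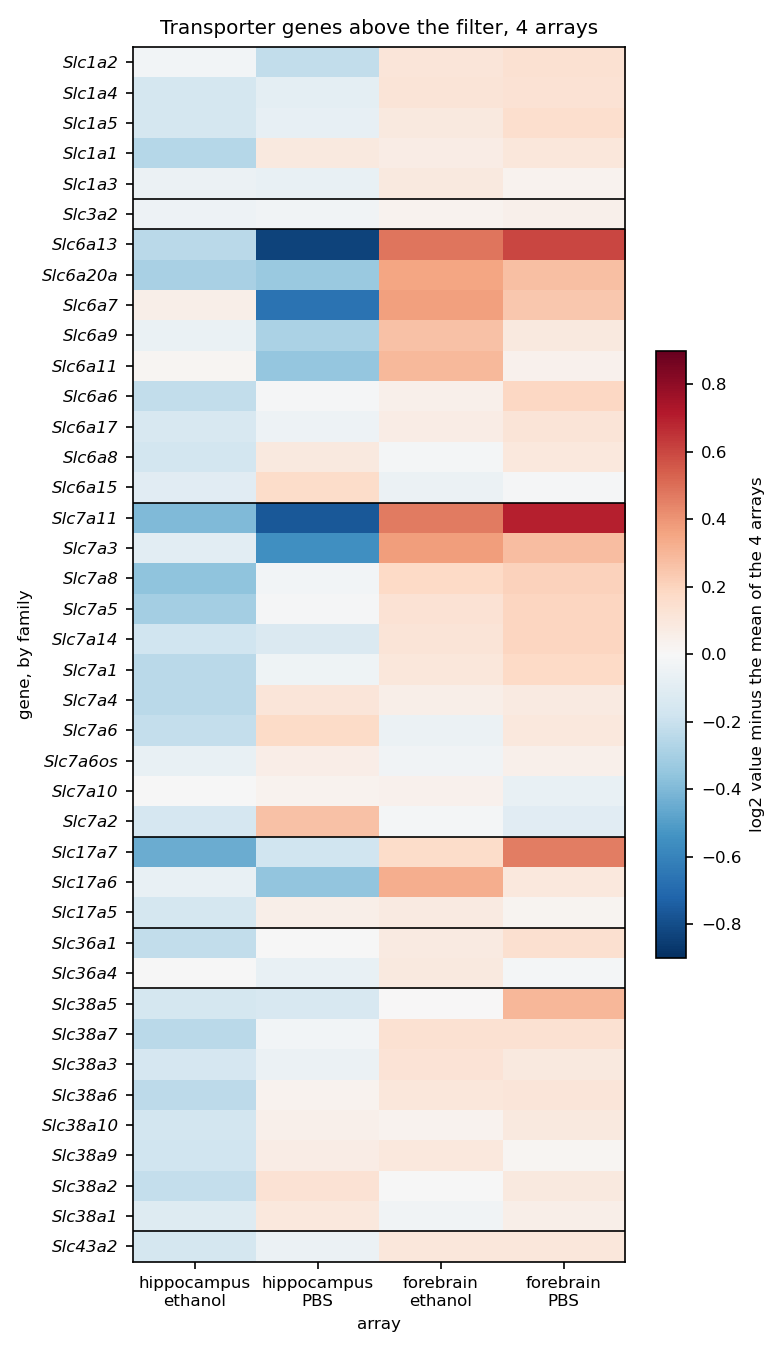
Each row is 1 of the 40 transporter genes above the filter, grouped by family, and each column an array; colour gives the log2 value minus the gene's mean over the 4 arrays, red higher and blue lower. The hippocampus ethanol array was the lowest for 28 genes and the hippocampus PBS array for 11, among them Slc6a13, Slc7a11, Slc6a7 and Slc7a3.

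Across the 40 genes the arrays fell into a pattern by tissue. The hippocampus ethanol array was the lowest of the 4 for 28 genes and the highest for 0, and the hippocampus PBS array was the lowest for 11. Over all kept genes the corresponding shares were 50.2%, 12.9% and 19.9%. The 11 genes lowest in the hippocampus PBS array were Slc6a13, Slc6a20a, Slc6a7, Slc6a9, Slc6a11, Slc7a11, Slc7a3, Slc17a6, Slc1a2, Slc1a3 and Slc36a4. A forebrain array was the lowest only for Slc7a10, whose protein exchanges glycine and serine, where the forebrain PBS array read 7.39 against 7.46 to 7.50 in the others.

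Among the remaining kept genes, the cationic amino acid transporter family genes Slc7a14 and Slc7a1 and the neutral carrier gene Slc38a7 had both hippocampus arrays below both forebrain arrays. Their limma tissue differences were -0.31, -0.28 and -0.27, with adjusted p of 0.12, 0.15 and 0.19, so none passed the threshold. Slc1a4 and Slc1a5, neutral amino acid exchangers, had limma tissue differences of -0.24 and -0.23, which did not pass the threshold (adjusted p = 0.15 and 0.24). Their ethanol differences lay between -0.08 and -0.01 in the tissues. Slc36a1, a lysosomal carrier, and Slc36a4 differed by -0.22 and 0.07 after ethanol in hippocampus. The facilitated carrier gene Slc43a2 differed by -0.11 there, and Slc17a5, which exports sialic acid from lysosomes, by -0.21. Slc7a6os, named for its place opposite Slc7a6, encodes no transporter and differed by -0.13.

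Genes that make, store or break down the transported substances were also examined, and limma called 0 of 43 for ethanol or for tissue. At an unadjusted p of 0.05, 6 were higher and 5 lower after ethanol, where 3.41% and 6.36% of all kept genes were. For tissue, 2 were higher and 7 lower in hippocampus at that p, where 3.27% and 11.9% of all kept genes were. The 5 genes of GABA synthesis, storage and breakdown were all higher after ethanol in hippocampus, with a median of 0.35, where 30.7% of all kept genes read higher. They were led by the GABA transaminase gene Abat at 0.56 and the synthesizing enzyme gene Gad1 at 0.51, and had a median of 0.05 in forebrain. Gad1 read 10.38 after ethanol and 9.86 after PBS in hippocampus, against 10.29 and 10.22 in forebrain, so the hippocampus PBS array was again the lowest. GABAergic neuron markers were higher for 7 of 9 genes in that comparison (median 0.30). That list also holds Gad1, Gad2 and Slc32a1 of the 5 GABA genes, so the lists share values. Striatal projection neuron markers were higher for 8 of 8 (median 0.48), and for 3 of 8 in forebrain (median -0.033). The part of either population in the GABA gene values was not tested. Glutamate and glutamine enzymes and carriers were higher for 5 of 7 in hippocampus (median 0.13), among them glutamine synthetase, Glul, at 0.23. Lower were 6 of 7 serine and glycine genes (median -0.19), with the mitochondrial enzyme gene Shmt2 at -0.33, and 5 of 5 branched-chain amino acid genes (median -0.23), where 69.3% of all kept genes read lower.

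Of the amino acid stress response, 6 of 10 genes passed the filter, and their median after ethanol was -0.06 in hippocampus and -0.05 in forebrain. The asparagine synthetase gene Asns differed by 0.38 and the glutathione-degrading enzyme gene Chac1 by 0.44 in hippocampus, whereas the regulator gene Atf4 itself differed by -0.26. Asns read 10.31 after ethanol and 9.93 after PBS in hippocampus, and 10.28 in both forebrain arrays. Glutathione synthesis genes, which act downstream of the cystine taken up by the Slc7a11 carrier, had a median of -0.10 in hippocampus and 0.02 in forebrain over 4 genes. Their median tissue difference was -0.08 between ethanol arrays and 0.03 between PBS arrays. Creatine and taurine synthesis genes had a median of 0.06 in hippocampus and 0.02 in forebrain after ethanol. Those of monoamine and acetylcholine handling kept 4 of 12 genes, with medians of 0.16 and 0.04, and the acetylcholinesterase gene Ache stood at 0.52 and 0.30.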

How the data were processed

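The authors deposited expression on a log2 scale, which was read from the range of the values. The submitters' processing notes name MAS5, but no label or header states how signals were corrected or scaled. Of 35557 probe sets, 21789 had 1 gene symbol in the platform annotation, 1621 had several and 12147 had none. All 73 transporter symbols matched RefSeq (GRCm38.p6), and 2 of these genes had more than 1 probe set. A gene was kept when its mean over the arrays was at least 7.11, the median over probe sets. Within a tissue or treatment, differences of 2 arrays were counted at 1.5-fold without a test. limma 3.58.1 in R 4.3.3 fitted treatment and tissue as additive terms over 11013 genes, using a trended eBayes and calls at a Benjamini-Hochberg adjusted p of 0.05. With 1 array a group, its error is the treatment-by-tissue difference, moderated by the spread of genes of like level. Its p-values therefore hold no spread among replicate arrays or animals. The fit was also run on simulated data with the same spread for every gene and no tissue effect. That setting differs from these data, so no conclusion is drawn from it. The transporter genes and all lists were chosen with earlier results of these data known. Genes were named by rank of difference in each comparison, by a limma call, or as transmitter transporters; others were chosen after their values were seen. Alternatives changed the scaling, filter, probe set rule, fold and model. Tables and plots used Python 3.11.15, pandas 2.3.3 and matplotlib 3.10.9.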

Additional observations from a re-analysis of the deposited data

Results flagged for a closer look

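The cystine transporter gene Slc7a11 had ethanol differences of opposite sign in the tissues, each at least 0.2 on the log2 scale. It was higher by 0.37 after ethanol in hippocampus and lower in forebrain, at -0.23, so the effects differ by 0.60. With 1 array a group, this difference was not tested.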

How the results depend on the processing

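In hippocampus the 2 genes 1.5-fold higher after ethanol became 0 with the filter at the 75th percentile and 0 at 2-fold. At a log2 difference of 0.32, 5 were higher and 6 lower, with no share of all kept genes reported beside them. Transporter genes called lower in hippocampus than in forebrain by limma numbered 6, and 13 after quantile normalization. Calls over all kept genes, in either direction, rose from 124 to 416 there. With the 75th percentile filter, which drops low genes, 3 were called (Slc17a6, Slc6a11 and Slc7a5). With no filter 3 were called (Slc17a7, Slc7a11 and Slc38a4). Slc6a11, Slc7a5 and Slc38a4 were not among the 6. Without a trend in eBayes 3 of the 6 were called. Over all genes these 3 settings called 113 of 5549, 37 of 19938 and 27 of 11013. With treatment left out of the model 0 were called, and the lowest adjusted p of a transporter gene was 0.0883. The cause was not tested. Slc7a11 and Slc17a7 were each called in 5 of 6 alternatives that kept them, Slc17a6 in 4 of 7, Slc6a20a in 4 of 6, and Slc6a13 and Slc7a3 in 3 of 6. With no filter the Slc17a median of the tissue difference was -0.054 between ethanol arrays and 0.028 between PBS arrays, since its 6 genes below the filter then enter. No alternative called a transporter gene for ethanol, and no named difference past a threshold changed sign. Within a treatment, chosen after the data were seen, the tissue difference kept its sign for all 6 called genes. The calls rest on these same arrays, with the difference between treatments as error. A shared sign is therefore close to fixed by the call and is no separate check. No paired analysis was possible because the labels give no replicate numbers. No array could be left out, since that leaves no residual degree of freedom.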

Other observations

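Of the 33 transporter genes below the filter, 22 read higher and 11 lower after ethanol in hippocampus, and 18 and 15 in forebrain, with medians of 0.08 and 0.01. The share of all genes below the filter is not reported here, so these counts have no comparison. Over all genes the hippocampus median was -0.015 with no filter and -0.08 over kept genes. Slc6a3, the dopamine transporter gene, was named after its values were seen. It read 7.41 after ethanol and 6.72 after PBS in hippocampus, and 7.19 after ethanol and 6.83 after PBS in forebrain. The ethanol arrays lay above the PBS arrays in both tissues, with differences of 0.69 and 0.36, and with no filter limma gave 0.53 (SE 0.110, unadjusted p = 0.00175, adjusted p = 0.62). Its mean of 7.04 lay just under the filter value. Slc38a4, an imprinted gene of a neutral and cationic amino acid carrier, read 6.39 and 6.47 in hippocampus against 7.23 and 7.18 in forebrain (ethanol, then PBS). With no filter, limma called it lower in hippocampus at -0.77 (adjusted p = 0.0432).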
